A study of Mus musculus with 6 samples.

Results

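Axon guidance ligands and receptors were compared between mouse primary hippocampal neurons treated with microglial apolipoprotein E (apoE) particles and neurons treated with astrocytic apoE particles. The genes were taken by name: semaphorins, plexins, neuropilins, ephrins, Eph receptors, Slits, Robo receptors, netrins and the netrin receptors Dcc and Unc5. Of 68 symbols of these families in the deposited tables, 62 reached a log2 value of 3.32 in at least 3 of the 6 libraries. These 62 are described here among 15059 genes that passed the same filter, out of 47593 symbols. All 62 passed in every library, so no gene entered through 1 group alone. The weakest gene inside the limit was Sema3d, which stood between 4.25 and 4.27 with microglial apoE and between 4.27 and 4.28 with astrocytic apoE. Closest outside it was Robo3, at 3.04 or less in every library. Epha1, Sema3g, Plxnb3, Ntn5 and Robo4 also fell short.

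Both groups were wild-type neurons that received 6 µg/mL of particles at culture day 10 for 24 h. They differed in the cells from which the particles came, microglia or astrocytes, with 3 samples each. Untreated neurons are not part of the comparison, so every difference is microglial minus astrocytic apoE and says nothing about a change from baseline. Whether the samples within a group are separate cultures is not stated in the labels, so the spread behind each p-value is that between these samples and may be technical.

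Growing axons are steered by secreted or membrane-bound cues that are read by receptors on the growth cone. Semaphorins act through plexins, with neuropilins as the binding partners of most secreted class 3 semaphorins. Ephrins bind Eph receptor tyrosine kinases, Slits bind Robo receptors, and netrins attract through Dcc and repel through Unc5 receptors. In the hippocampus the same molecules also act on dendrites, spines and synapses after axons have reached their targets.

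The guidance genes changed by little and in both directions. The widest differences belonged to a pair of related receptors: Plxnb1 was 1.25-fold lower and Plxnb2 was 1.16-fold higher with microglial apoE. Plxnd1, Plxnc1, Plxna4 and the Eph receptor Ephb6 also fell, whereas the semaphorins Sema4b and Sema3c, the netrin Ntn1, its receptor Unc5b and the Eph receptor Epha2 rose. In limma with Benjamini-Hochberg adjustment over all genes tested, 17 of the 62 guidance genes (27.4%) were called at an adjusted p under 0.05, beside 24.8% of all genes tested. Of the 17, 9 were higher and 8 lower, and over all genes 13.0% were higher and 11.8% lower. The median log2 difference was -0.01 over the 62 genes and -0.00057 over all genes, and the median size of the difference was 0.058 and 0.041. Among genes with a mean log2 value of 8 to 12, where 45 of the 62 lie, 13 guidance genes (28.9%) and 28.6% of all genes were called. As deposited, the guidance genes were thus called about as often as other genes. At 8 to 10 it was 17.4% (beside 26.2%) and at 10 to 12 it was 40.9% (beside 31.7%). With every library shifted to 1 common median, 38.7% were called (beside 28.2%). With the summed level made equal the share was 24.2% (beside 25.5%), and without mitochondrial genes 37.1% (beside 26.6%).

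The libraries of a gene did not overlap between groups in 30 of the 62 genes (48.4%), beside 38.9% of all genes. In 12 of them the microglial apoE libraries were higher, beside 20.1% of all genes, and in 18 they were lower, beside 18.8%. In a stricter test against a minimum log2 difference of 0.1, only Plxnb1 (adjusted p = 1.5e-05) and Plxnb2 (adjusted p = 0.013) passed, beside 4.37% of all genes, so the calls of the other 15 genes ended there. The balance of directions moved with scaling, in the guidance genes as in all genes. Higher genes made up 52.9% of the called guidance genes as deposited, beside 52.4% of all called genes. They made up 33.3% (8 higher, 16 lower) when every library was shifted to 1 common median, beside 34.8% of all called genes. The share was 39.1% (9 higher, 14 lower) when the summed level was made equal without mitochondrial genes, beside 41.7%. With the summed level of all genes made equal it was 60% (9 higher, 6 lower), beside 65.6%. Of the 9 higher calls 6 held without any 1 library, as did 5 of the 8 lower calls. Over all genes 3742 were called with every library and 2556 to 4541 without each library in turn. How many of those 3742 calls held throughout was not counted.

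**Figure D1:**
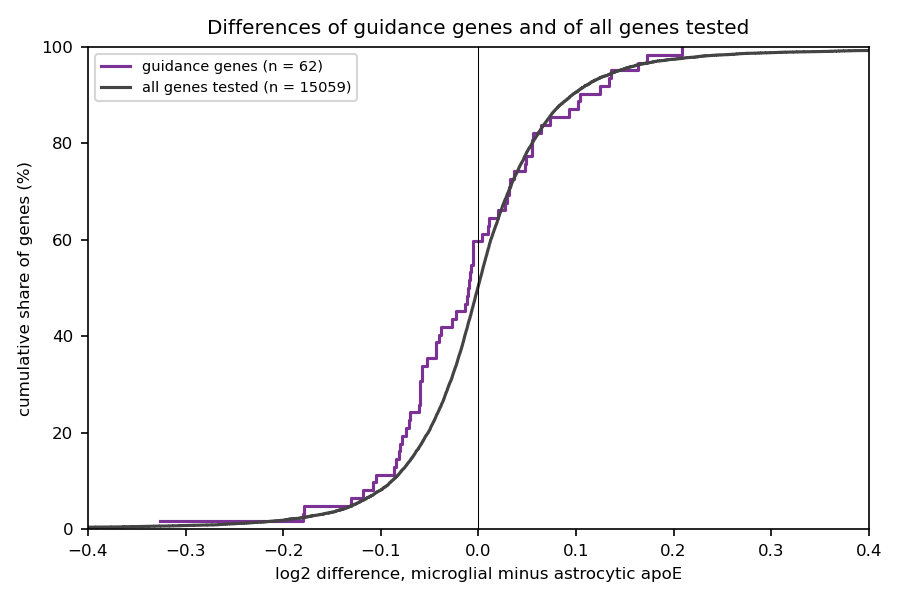
Cumulative share of genes (vertical axis, %) against the log2 difference, microglial minus astrocytic apoE (horizontal axis), for the 62 guidance genes and all 15059 genes tested. Both curves cross the middle close to 0, at medians of -0.01 and -0.00057, and the curve of the guidance genes lies above that of all genes between about -0.1 and 0.

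Libraries of a group were not alike for these genes. Microglial replicate 2 was the lowest of its group in 30 of the 62 genes (48.4%, beside 35.6% of all genes), and astrocytic replicate 1 was the lowest of its group in 31 (50%, beside 34.1%). Astrocytic replicate 3 was the highest of its group in 37 (59.7%, beside 40.5%). Guidance genes are long, with a median genomic span of 107373 bases against 23220 for all genes tested that had one. Over the 2181 tested genes that span at least 100000 bases, 32 of them guidance genes, microglial replicate 2 differed from the other libraries of its group by -0.027 in the median, and astrocytic replicate 3 from those of its own by -0.0029. With microglial replicate 2 and astrocytic replicate 3 both left out, a choice made after seeing the data, 15 guidance genes were higher and 11 lower, and 5131 genes of all were called. That is 41.9% of guidance genes, beside 34.1% of all genes. Of guidance genes not called with all libraries, Plxna1, Ephb2, Robo2, Efnb3, Ephb3, Unc5c, Plxna3, Slit2 and Sema4a passed in that limma fit (adjusted p = 9.4e-06 to 0.047). It set 2 libraries against 2, and astrocytic replicate 1 was kept. Both libraries left out had stood apart in these same genes, so their removal can narrow the spread. Those calls are therefore no separate evidence of a difference.

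Other transcripts moved in the same libraries. All 10 neuronal markers listed passed the filter and 5 of them fell, with a summed linear level (2 raised to the deposited value) of 76612 to 76947 with microglial apoE, against 79772 to 80349 with astrocytic apoE. Of 11 tested astrocyte markers 9 fell and 1 rose, with a sum over the 12 listed of 62564 to 63136 with microglial apoE, against 74115 to 75307 with astrocytic apoE. All 10 markers of dividing cells fell (1601 to 1627 with microglial apoE, against 2486 to 2552 with astrocytic apoE). Of 9 tested oligodendrocyte lineage markers 1 rose and 3 fell (sum over the 10 listed 6610 to 6774 with microglial apoE, against 6504 to 6808 with astrocytic apoE). Of 7 tested microglial markers 0 were called in limma, and 2 had an unadjusted p under 0.05. The sum over the 10 listed was 236 to 241 with microglial apoE, against 234 to 236 with astrocytic apoE, with P2ry12, Tmem119 and Trem2 under the filter. Of 5 tested endothelial and mural markers 2 rose (sum over the 12 listed 879 to 893 with microglial apoE, against 854 to 871 with astrocytic apoE), and Pecam1, Cldn5, Flt1, Cdh5, Tek, Kcnj8 and Lum were under the filter. No listed marker stood at exactly 0. The widest marker difference was that of Gfap, an astrocyte marker (-1.08). Transcripts of astrocyte markers were thus present beside neuronal ones, and bulk samples do not show which cells a guidance transcript came from. Fewer cells of a type and less RNA per cell cannot be told apart in bulk samples, and the part of these markers in the differences below was not tested.

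Per kb of exon, the guidance genes spanned a wide range of levels. Levels in this paragraph are linear levels divided by the merged exon length, as mean ± SD over 3 samples. That length joins the exons of all annotated transcripts of a gene, and the order of genes depends on it. Before the division, mean log2 values with microglial apoE were 10.13 for Unc5d, 9.61 for Unc5c, 9.40 for Unc5a, 7.77 for Unc5b and 7.76 for Dcc. They were 10.90 for Slit1 and 10.05 for Slit2. With astrocytic apoE, Dcc stood at 7.87, above Unc5b at 7.61. Efnb3, a transmembrane ephrin, was the highest, at 1732 ± 25.7 with microglial and 1805 ± 16.3 with astrocytic apoE. Among plexins, Plxna1 (535.5 ± 20.9 with microglial and 515.4 ± 14.5 with astrocytic apoE), Plxnb2 (485.6 ± 11.4 with microglial and 420.4 ± 12.3 with astrocytic apoE) and Plxnd1 (452.5 ± 8.60 with microglial and 512.9 ± 21.0 with astrocytic apoE) stood highest. Plxnb2 was thus above Plxnd1 with microglial apoE and below it with astrocytic apoE. Slit1 (322.7 ± 7.08 with microglial and 325.8 ± 11.5 with astrocytic apoE) was several times above Slit2 (41.6 ± 1.80 with microglial and 40.7 ± 0.549 with astrocytic apoE) and Slit3 (43.4 ± 0.407 with microglial and 44.6 ± 1.39 with astrocytic apoE). Nrp2 (326.2 ± 9.01 with microglial and 303.5 ± 4.86 with astrocytic apoE) was above Nrp1 (109.3 ± 1.72 with microglial and 106.9 ± 1.38 with astrocytic apoE), and Robo2 (188.8 ± 8.29 with microglial and 182.5 ± 2.89 with astrocytic apoE) was above Robo1 (122.9 ± 5.67 with microglial and 132.3 ± 0.444 with astrocytic apoE). Among netrin receptors Unc5a was the highest (162.2 ± 2.83 with microglial and 171.5 ± 4.01 with astrocytic apoE) and Dcc the lowest (16.5 ± 0.731 with microglial and 17.7 ± 0.571 with astrocytic apoE). Epha5 (250.6 ± 6.95 with microglial and 251.5 ± 1.68 with astrocytic apoE) and Epha4 (219.3 ± 12.1 with microglial and 220.4 ± 4.72 with astrocytic apoE) led the Eph receptors. Sema6b (343.7 ± 3.94 with microglial and 346.1 ± 24.2 with astrocytic apoE) led the semaphorins, and Sema3d was the lowest guidance gene (2.23 ± 0.0163 with microglial and 2.25 ± 0.00907 with astrocytic apoE).

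**Figure D2:**
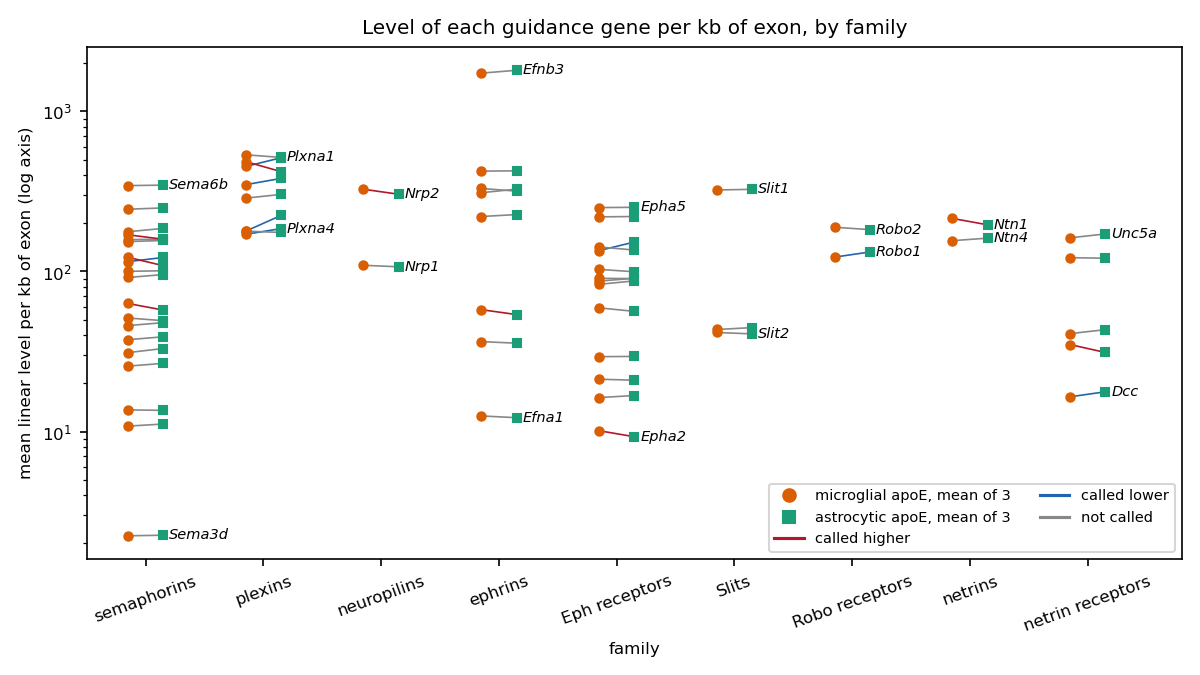
Mean linear level per kb of exon (vertical log axis) of each of the 62 guidance genes by family, with microglial apoE left of astrocytic apoE (means of 3 samples) and a line joining the means of a gene. Efnb3 is the highest gene and Sema3d the lowest, and the lines are nearly flat.

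Among plexins 1 of 8 rose and 4 fell (62.5% called, beside 24.8% of all genes), with a median log2 difference of -0.10. With the summed level made equal the counts were also 1 higher and 4 lower, and with the other scalings 1 higher and 5 lower. Plexins are single-pass receptors whose intracellular part acts on small GTPases. Plxnb1, a receptor of Sema4d (GRCm38 chromosome 9, 109095389 to 109119917), had log2 values of 10.76, 10.69 and 10.76 with microglial apoE, against 11.04, 11.01 and 11.15 with astrocytic apoE. All microglial apoE libraries lay below all astrocytic apoE libraries, and the gap between the nearest libraries was wider than the range within either group. The log2 difference was -0.33 ± 0.033 SE (adjusted p = 4.5e-08), and it was -0.35 to -0.29 when each library was left out in turn. An antisense gene shares 257 exonic bases (2.68%) with Plxnb1, and reads of the strands cannot be told apart here because the strand setting of the counting is unknown.

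Plxnb2, a receptor of class 4 semaphorins such as Sema4c (chromosome 15, 89155549 to 89180788), went the other way. Its log2 values were 11.88, 11.83 and 11.90 with microglial apoE, against 11.62, 11.66 and 11.71 with astrocytic apoE. Again the groups did not overlap (log2 difference 0.21 ± 0.029 SE, adjusted p = 4.7e-06). Plxnb3, the remaining B plexin, was under the filter. Since Plxnb1 and Plxnb2 had the widest fall and rise, the 250 bases before their RefSeq starts (GRCm38.p6) are shown with the GC box GGGCGG, on either strand, in capitals. Both windows hold 4 such matches.
Plxnb2, chr15:89180789-89181038, minus strand: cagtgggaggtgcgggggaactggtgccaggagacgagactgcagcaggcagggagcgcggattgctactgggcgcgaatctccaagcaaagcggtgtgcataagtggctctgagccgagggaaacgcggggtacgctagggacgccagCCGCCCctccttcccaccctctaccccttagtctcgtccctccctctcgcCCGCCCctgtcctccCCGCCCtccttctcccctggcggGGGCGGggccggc
Plxnb1, chr9:109095186-109095435, plus strand: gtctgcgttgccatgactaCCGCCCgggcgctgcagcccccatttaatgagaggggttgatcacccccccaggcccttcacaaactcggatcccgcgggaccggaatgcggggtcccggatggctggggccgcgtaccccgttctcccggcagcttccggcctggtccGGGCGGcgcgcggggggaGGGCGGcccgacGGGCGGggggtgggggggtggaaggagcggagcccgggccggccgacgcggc
GC boxes were found in 7 of 7 higher, 4 of 6 lower and 29 of 39 uncalled guidance genes with a promoter in the RefSeq table, beside 32.7% of all 32851 windows of that length. Guidance genes are counted here by gene and the rest by window, and a gene can have several windows, as Plxnb2 has 2. The shares are therefore of unlike units, here and for the motifs below, and an excess of any motif was not tested. A match is a run of letters and shows no binding.

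Plxnd1, the receptor of Sema3e (chromosome 6, 115954811 to 115995005), had log2 values of 11.72, 11.68 and 11.67 with microglial apoE, against 11.82, 11.86 and 11.93 with astrocytic apoE. Its groups did not overlap, with a log2 difference of -0.18 ± 0.030 SE (adjusted p = 6.0e-05). Plxnc1, the receptor of Sema7a (chromosome 10, 94790866 to 94944835), stood at 11.52, 11.46 and 11.54 with microglial apoE, against 11.61, 11.67 and 11.63 with astrocytic apoE. The lowest astrocytic apoE library stood above the highest microglial apoE one, and the difference was -0.13 ± 0.029 SE (adjusted p = 0.0016). Plxna4, a co-receptor of Sema3a (chromosome 6, 32144268 to 32588192), stood at 11.24, 11.17 and 11.28 with microglial apoE, against 11.31, 11.36 and 11.38 with astrocytic apoE. That is a difference of -0.12 ± 0.030 SE (adjusted p = 0.0051), also without overlap.

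The promoter window of Plxnc1 is shown because it was the single called guidance gene with the core of the interferon response element, GAAA and GAAA set apart by any 2 bases, on either strand and in capitals here.
Plxnc1, chr10:94944846-94945095, minus strand: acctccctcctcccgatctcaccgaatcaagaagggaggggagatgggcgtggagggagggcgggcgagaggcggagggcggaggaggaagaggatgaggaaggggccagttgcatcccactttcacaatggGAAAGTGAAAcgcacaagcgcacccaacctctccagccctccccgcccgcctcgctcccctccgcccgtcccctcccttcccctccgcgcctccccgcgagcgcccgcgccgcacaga
That core was in 1 of 6 lower, 0 of 7 higher and 1 of 39 uncalled guidance genes with an entry, beside 2.98% of all windows. The AP-1 motif TGANTCA was in 0 of 7 higher, 0 of 6 lower and 3 of 39 uncalled ones, beside 6.75% of all windows.

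The A plexins other than Plxna4 did not pass. Plxna2, a receptor of class 6 semaphorins, had a log2 difference of -0.08 ± 0.032 SE (adjusted p = 0.078). It passed with median centring (adjusted p = 0.033), with the sum made equal without mitochondrial genes (adjusted p = 0.046) and without microglial replicate 1 (adjusted p = 0.047). Plxna1, a co-receptor of class 3 semaphorins, had a difference of 0.05 ± 0.030 SE (adjusted p = 0.20). Without microglial replicate 2 it was 0.09 (adjusted p = 0.029) and without astrocytic replicate 3 it was 0.08 (adjusted p = 0.0499). An antisense gene shares 970 exonic bases (10.7%) with Plxna1. Plxna3 stood between 10.39 and 10.49 with microglial apoE and between 10.39 and 10.47 with astrocytic apoE.

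**Figure D3:**
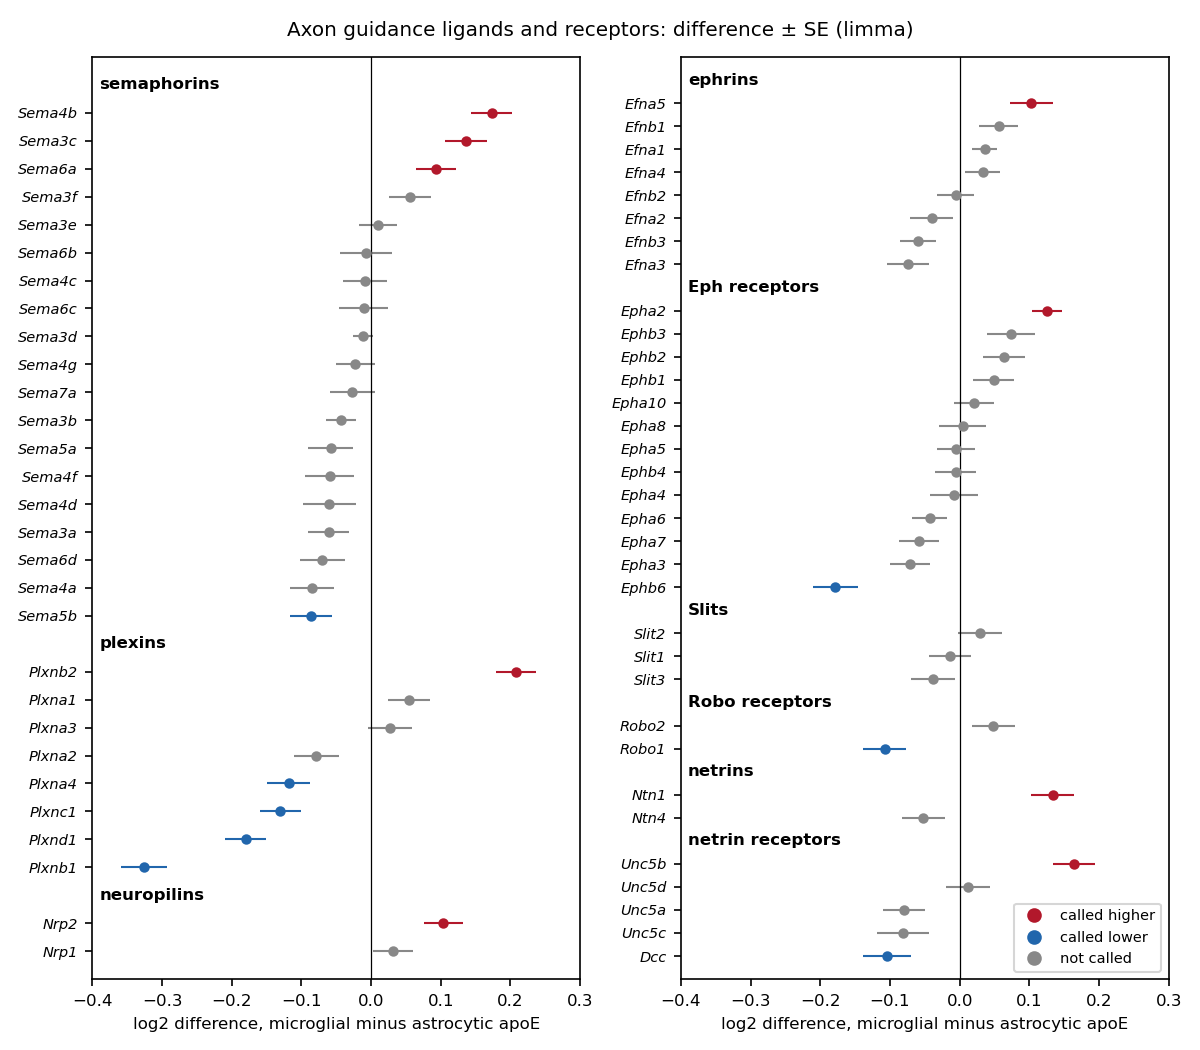
Log2 difference, microglial minus astrocytic apoE (horizontal axis), of all 62 guidance genes by family, with bars of ± 1 SE from limma and colours for genes called higher, called lower and not called. Plxnb1 at -0.33 and Plxnb2 at 0.21 are the extremes, and most genes lie within 0.1 of 0.

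Of 19 semaphorins 3 rose and 1 fell (21.1% called, beside 24.8% of all genes). With median centring 2 were higher and 4 lower. With the summed level made equal 3 were higher and 0 lower, and without mitochondrial genes 3 and 2. Sema4b, a transmembrane class 4 semaphorin (chromosome 7, 80186841 to 80226527), had log2 values of 9.43, 9.46 and 9.41 with microglial apoE, against 9.24, 9.28 and 9.26 with astrocytic apoE. The groups stood apart by more than the range within either, with a difference of 0.17 ± 0.029 SE (adjusted p = 8.0e-05). The secreted Sema3c, which binds neuropilins (chromosome 5, 17574281 to 17730268), stood at 8.81, 8.83 and 8.80 with microglial apoE, against 8.71, 8.67 and 8.65 with astrocytic apoE. Its difference was 0.14 ± 0.030 SE (adjusted p = 0.0016), without overlap.

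Sema6a, a transmembrane ligand of Plxna2 and Plxna4, stood at 10.51, 10.57 and 10.54 with microglial apoE, against 10.41, 10.45 and 10.48 with astrocytic apoE. The groups lay close together without overlap, with a difference of 0.09 ± 0.029 SE (adjusted p = 0.020). The call was lost without microglial replicates 2 or 3 or astrocytic replicates 1 or 2 (adjusted p = 0.069 to 0.12) and with median centring (adjusted p = 0.053). Sema5b, a transmembrane semaphorin with thrombospondin repeats, stood at 9.67, 9.71 and 9.63 with microglial apoE, against 9.75, 9.74 and 9.78 with astrocytic apoE. These groups also lay close together without overlap, with a difference of -0.09 ± 0.030 SE (adjusted p = 0.037). Its call held without microglial replicate 2 but was lost without each of the other libraries (adjusted p = 0.067 to 0.18). It was also lost when low genes were kept (adjusted p = 0.057), with the gene span trend removed (adjusted p = 0.052) and with the summed level made equal (adjusted p = 0.085).

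Of the 15 semaphorins that did not pass, 13 had a negative difference, beside 7594 of all 15059 genes. Sema6b (-0.0075), Sema4c (-0.0091), Sema6c (-0.011) and Sema3d (-0.012) were among the 13. Their differences were smaller in size than the shift of 0.014 that came from making the summed level equal. Sema3a, the repellent read by Nrp1 and A plexins, stood at 9.29, 9.30 and 9.36 with microglial apoE, against 9.38, 9.38 and 9.37 with astrocytic apoE. The groups did not overlap, but the difference of -0.06 ± 0.030 SE missed the threshold (adjusted p = 0.14). Sema4a (-0.08 ± 0.032 SE, adjusted p = 0.053) passed without microglial replicate 2 (-0.11, adjusted p = 0.030). It also passed in 5 further fits, in which low genes were kept, either length trend was removed, libraries were centred on the median or the sum was made equal without mitochondrial genes (adjusted p = 0.017 to 0.0496). Sema4d, the ligand of Plxnb1, had a difference of -0.06 ± 0.038 SE (adjusted p = 0.27). Sema6d (-0.07 ± 0.032 SE, adjusted p = 0.12) passed with median centring (adjusted p = 0.046). Sema5a had a difference of -0.06 ± 0.032 SE (adjusted p = 0.19), and Sema3f, the ligand of Nrp2, one of 0.06 ± 0.030 SE (adjusted p = 0.19). Sema7a, the ligand of Plxnc1, stood between 9.62 and 9.69 with microglial apoE and between 9.62 and 9.74 with astrocytic apoE. Sema3e, the ligand of Plxnd1, stood between 6.97 and 7.01 with microglial apoE and between 6.95 and 7.003 with astrocytic apoE. The groups overlapped for both of these ligands.

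Of the neuropilins, Nrp2, the receptor of Sema3f and Sema3c (chromosome 1, 62703285 to 62818695), stood at 11.95, 11.87 and 11.92 with microglial apoE, against 11.82, 11.83 and 11.78 with astrocytic apoE. The groups did not overlap and the difference was 0.10 ± 0.028 SE (adjusted p = 0.0074). The call was lost without microglial replicate 1 (0.09, adjusted p = 0.070). Nrp1, the receptor of Sema3a and of vascular endothelial growth factor, stood at 10.06, 10.04 and 10.09 with microglial apoE, against 10.01, 10.04 and 10.05 with astrocytic apoE. Here the groups overlapped (difference 0.03 ± 0.028 SE, adjusted p = 0.45).

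Ntn1, the attractant first known from the floor plate (chromosome 11, 68209364 to 68400823), rose. Its log2 values were 10.37, 10.37 and 10.44 with microglial apoE, against 10.25, 10.22 and 10.31 with astrocytic apoE. The lowest microglial apoE library was above the highest astrocytic apoE one, with a difference of 0.13 ± 0.031 SE (adjusted p = 0.0021). Ntn4, a netrin related to laminin beta chains, had a difference of -0.05 ± 0.031 SE (adjusted p = 0.23).

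Of the 5 netrin receptors 1 rose and 1 fell (40% called, beside 24.8% of all genes), with a median log2 difference of -0.08. Unc5b, a dependence receptor that is also found on vessels (chromosome 10, 60762593 to 60831581), stood at 7.74, 7.81 and 7.77 with microglial apoE, against 7.59, 7.60 and 7.63 with astrocytic apoE. Its difference of 0.16 ± 0.030 SE (adjusted p = 0.00017) exceeded the range within either group. Dcc, the attractive netrin receptor (chromosome 18, 71253634 to 72351069), stood at 7.81, 7.69 and 7.79 with microglial apoE, against 7.89, 7.90 and 7.81 with astrocytic apoE. The highest microglial apoE library lay just below the lowest astrocytic apoE one (difference -0.10 ± 0.034 SE, adjusted p = 0.027). That call was lost without microglial replicate 2 (-0.07, adjusted p = 0.18), without astrocytic replicate 1 (adjusted p = 0.11) and without astrocytic replicate 2 (adjusted p = 0.14). It was also lost with the summed level made equal (adjusted p = 0.056), with the gene span trend removed (-0.07, adjusted p = 0.11) and in limma without its trend and robust options (adjusted p = 0.058).

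Unc5a, another repulsive receptor, had log2 values of 9.41, 9.42 and 9.37 with microglial apoE, against 9.46, 9.47 and 9.52 with astrocytic apoE. The groups did not overlap, but the difference of -0.08 ± 0.030 SE missed the threshold (adjusted p = 0.053). It passed in 5 other fits, with a stricter filter, the exonic length trend removed, median centring, the sum made equal without mitochondrial genes or no trend and robust options (adjusted p = 0.015 to 0.048). Unc5c had a difference of -0.08 ± 0.037 SE (adjusted p = 0.12), and of -0.13 (adjusted p = 0.0066) without astrocytic replicate 3. Unc5d stood between 10.09 and 10.17 with microglial apoE and between 10.09 and 10.18 with astrocytic apoE.

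None of the 3 Slits was called in limma, beside 24.8% of all genes. Of the 3, 0 had an unadjusted p under 0.05, beside 5439 of all 15059 genes. Slit1 stood at 10.91, 10.87 and 10.93 with microglial apoE, against 10.87, 10.90 and 10.97 with astrocytic apoE (difference -0.01 ± 0.030 SE, adjusted p = 0.79). Slit2 stood at 10.09, 9.97 and 10.07 with microglial apoE, against 10.01, 10.000 and 10.04 with astrocytic apoE (difference 0.03 ± 0.032 SE, adjusted p = 0.55). Slit3 stood at 8.05, 8.03 and 8.04 with microglial apoE, against 8.12, 8.03 and 8.09 with astrocytic apoE (difference -0.04 ± 0.031 SE, adjusted p = 0.40). The groups overlapped for all 3. Slit2 passed only with microglial replicate 2 and astrocytic replicate 3 both left out (0.08, adjusted p = 0.032), the choice made after seeing the data.

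The log2 differences of the 2 tested Robo receptors had opposite signs, and 1 of them passed (50%, beside 24.8% of all genes). Robo1 (chromosome 16, 72308306 to 73046095) stood at 11.02, 10.91 and 11.03 with microglial apoE, against 11.10, 11.09 and 11.09 with astrocytic apoE. All microglial apoE libraries were lower, with a difference of -0.11 ± 0.031 SE (adjusted p = 0.012). It was -0.07 (adjusted p = 0.074) without microglial replicate 2, the lowest of its group. Robo2 on the same chromosome (73891839 to 74411825) stood at 11.69, 11.57 and 11.68 with microglial apoE, against 11.59, 11.62 and 11.58 with astrocytic apoE, with microglial replicate 2 below the astrocytic apoE libraries. Its difference was 0.05 ± 0.030 SE (adjusted p = 0.26). It was 0.09 (adjusted p = 0.025) without that library and 0.07 (adjusted p = 0.048) with the gene span trend removed. Robo3 and Robo4 were under the filter.

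Of 8 ephrins 1 rose and 0 fell (12.5% called, beside 24.8% of all genes). Efna5, a membrane-anchored ligand of EphA receptors (chromosome 17, 62604184 to 62881317), stood at 7.85, 7.89 and 7.85 with microglial apoE, against 7.71, 7.80 and 7.77 with astrocytic apoE. The groups did not overlap (difference 0.10 ± 0.031 SE, adjusted p = 0.016), and the call was lost without microglial replicate 2 (adjusted p = 0.070) or astrocytic replicate 1 (adjusted p = 0.11). Efnb3, a ligand of EphB receptors and Epha4, stood at 12.44, 12.45 and 12.40 with microglial apoE, against 12.50, 12.47 and 12.49 with astrocytic apoE. These did not overlap but missed the threshold (-0.06 ± 0.026 SE, adjusted p = 0.094). Efnb3 passed with median centring, with the sum made equal without mitochondrial genes and with either length trend removed (adjusted p = 0.024 to 0.046). Efna3 (-0.07 ± 0.030 SE, adjusted p = 0.073) passed in those same 4 fits (adjusted p = 0.022 to 0.041), and an antisense gene shares 344 exonic bases (14.1%) with it. Efnb1 had a difference of 0.06 ± 0.028 SE (adjusted p = 0.15). Efnb2, a ligand of Ephb4, stood between 11.49 and 11.52 with microglial apoE and between 11.50 and 11.52 with astrocytic apoE.

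Of 13 Eph receptors 1 rose and 1 fell (15.4% called, beside 24.8% of all genes). Ephb6, the EphB receptor without kinase activity (chromosome 6, 41605482 to 41620509), stood at 9.02, 9.000 and 8.95 with microglial apoE, against 9.14, 9.15 and 9.22 with astrocytic apoE. Every microglial apoE library was lower, with a difference of -0.18 ± 0.032 SE (adjusted p = 0.00016). Epha2, a receptor best known from epithelia (chromosome 4, 141301240 to 141329384), stood at 5.56, 5.61 and 5.53 with microglial apoE, against 5.45, 5.42 and 5.45 with astrocytic apoE. Its difference was 0.12 ± 0.022 SE (adjusted p = 1.0e-04) without overlap. If the deposited values are regularized logarithms, as inferred, the fold and SE of a gene at that low level may be too small. The 250 bases before the RefSeq start of Epha2 are shown because they were the only such window among guidance genes with the cAMP response element TGACGTCA, here in capitals.
Epha2, chr4:141300971-141301220, plus strand: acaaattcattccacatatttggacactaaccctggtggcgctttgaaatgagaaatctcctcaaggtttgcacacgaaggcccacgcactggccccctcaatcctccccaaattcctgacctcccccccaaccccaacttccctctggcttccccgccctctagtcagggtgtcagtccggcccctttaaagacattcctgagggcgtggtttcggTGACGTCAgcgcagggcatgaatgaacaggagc
That motif was in 1.55% of all windows.

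Other Eph receptors did not pass. Epha4, a receptor of both ephrin classes, stood at 10.83, 10.69 and 10.84 with microglial apoE, against 10.83, 10.77 and 10.78 with astrocytic apoE (difference -0.01 ± 0.034 SE, adjusted p = 0.89). Ephb2, which acts at excitatory synapses, stood at 10.84, 10.79 and 10.80 with microglial apoE, against 10.73, 10.71 and 10.80 with astrocytic apoE (difference 0.06 ± 0.030 SE, adjusted p = 0.12). The groups overlapped for both. Without astrocytic replicate 3, Ephb2 had a difference of 0.09 (adjusted p = 0.014). Ephb3 had 0.11 (adjusted p = 0.012) without it and 0.07 ± 0.034 SE (adjusted p = 0.12) with all libraries. Ephb1 had a difference of 0.05 ± 0.030 SE (adjusted p = 0.24) and Epha7 one of -0.06 ± 0.029 SE (adjusted p = 0.15). Epha3 (-0.07 ± 0.029 SE, adjusted p = 0.078) passed with median centring, with the sum made equal without mitochondrial genes and without limma's trend and robust options (adjusted p = 0.025 to 0.044). Epha5 stood between 11.99 and 12.06 with microglial apoE and between 12.03 and 12.05 with astrocytic apoE.

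**Figure D4:**
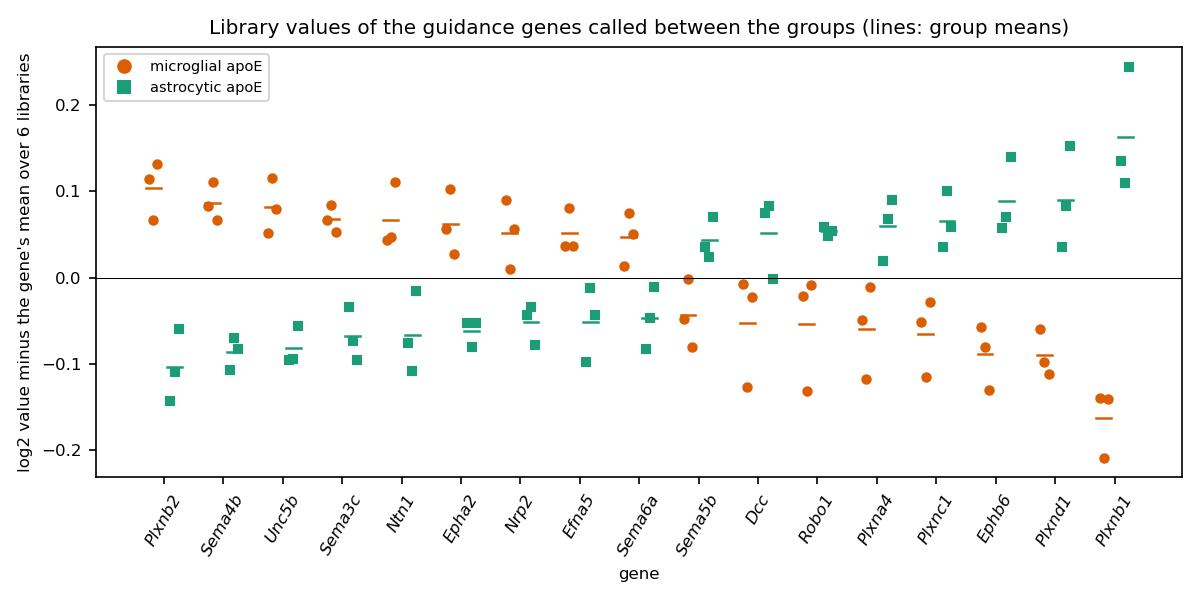
Log2 value of each library minus the gene's mean over 6 libraries (vertical axis) for the 17 guidance genes called, with microglial apoE left of astrocytic apoE and group means as lines. The groups do not overlap for any of the 17, which were picked by a test on these same values. Among all genes tested, 38.9% did not overlap.

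Ligands were called in 6 of 32 cases (18.8%, 5 higher and 1 lower) and receptors in 11 of 30 (36.7%, 4 higher and 7 lower), beside 24.8% of all genes (13.0% higher, 11.8% lower). The difference between ligands and receptors was not tested, and the directions moved with scaling. With median centring semaphorins had 2 higher and 4 lower, ephrins 1 and 2, and plexins 1 and 5. With the summed level made equal these counts were 3 and 0, 1 and 0, and 1 and 4. Ntn1, Unc5b, Sema3c and Nrp2 were higher and Dcc was lower. The call of Dcc was lost in several alternatives, and that of Nrp2 without microglial replicate 1. Unc5a and Unc5c had negative differences like Dcc but did not pass. Plxnb1, Plxnc1 and Plxnd1 fell, while their ligands Sema4d, Sema7a and Sema3e did not pass.

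Further genes of the pathway were taken from lists of other guidance molecules and of intracellular effectors. Of 26 other cues and receptors 2 rose and 5 fell (26.9% called, beside 24.8% of all genes, median -0.03). Cntn2, an axonal adhesion molecule, stood at 9.45, 9.39 and 9.41 with microglial apoE, against 9.60, 9.60 and 9.61 with astrocytic apoE (difference -0.18 ± 0.030 SE, adjusted p = 3.9e-05). The chemokine Cxcl12 (-0.14 ± 0.029 SE, adjusted p = 0.0011) and the netrin antagonist Draxin (-0.14 ± 0.031 SE, adjusted p = 0.0012) also fell. Of 48 tested effectors 3 rose and 4 fell (14.6% called, beside the same 24.8%, median -0.0036). Dpysl2, which encodes the semaphorin signalling protein CRMP2, was higher (0.14 ± 0.032 SE, adjusted p = 0.0027). The actin-binding Ablim1 (-0.11 ± 0.027 SE, adjusted p = 0.0025) and the oxidoreductase Mical2 (-0.12 ± 0.030 SE, adjusted p = 0.0032) fell. These 6 calls held without any 1 library and were lost against a minimum difference of 0.1.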

How the data were processed

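RNA from 6 samples of mouse hippocampal neurons was sequenced on a DNBSEQ platform, per the labels' protocols. The authors deposited 1 log2 value per gene symbol and library. Tools listed in the submitters' processing notes are HISAT2, featureCounts, DESeq2 and FastQC, with build GRCm38. The sources used here do not give roles, versions, annotation or strand setting. The values have the properties of a regularized logarithm, which is inferred: 21031 symbols stood at 0 in every library and none in some only, and at log2 values of 6 to 8 the median SD in a group was 0.0336, where counting would give 0.121. Folds and SEs of weak genes would then be shrunk, and depth is unknown; linear levels summed to 18060473 to 18337624 per library.

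The values were tested as deposited with limma 3.58.1 (trend and robust) in R 4.3.3, 3 against 3, on genes at 3.32 (the log2 of 10) or more in at least 3 libraries, with Benjamini-Hochberg adjustment over 15059 genes and a threshold of 0.05. Errors of differences are moderated SEs. The fit was tested on simulated data. Alternatives changed the filter, scaling, test options, length trends, a replicate block and the libraries used. Called guidance genes (up to 12 in each direction) are named with library values, as are Dcc, Ntn1, Robo1, Robo2, Slit1, Slit2, Slit3, Nrp1, Nrp2, Sema3a, Plxna4, Epha4, Ephb2, Efnb3 and Unc5a whatever their values, and the 3 genes of smallest p in each pathway list. Genes such as Sema4a, Unc5c, Plxna1, Plxna2, Efna3, Epha3 and Ephb3 were named after their values were seen. The guidance genes, lists and tests were chosen with earlier results of these data known. Positions and exon lengths are from GENCODE M21 (GRCm38), found for all 62 genes. Promoters are from RefSeq (GRCm38.p6), found for 52; Dcc, Efnb3, Ntn1, Plxna1, Plxna4, Sema3b, Sema3f, Sema6a, Slit1 and Unc5d had no entry. Figures were drawn with Python 3.11.15 and matplotlib 3.10.9.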

Additional observations from a re-analysis of the deposited data

How the results depend on the processing

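Of 17 alternatives, the following moved counts by over 1.5 times. Against a minimum log2 difference of 0.1, 1 guidance gene was higher and 1 lower, and 658 of all genes were called. After median centring 16 guidance genes were lower, beside 2767 of all genes, and with the summed level made equal without mitochondrial genes 14, beside 2330 of all genes, where 8 and 1780 were lower as deposited. With microglial replicate 2 and astrocytic replicate 3 both left out, 15 were higher. Leaving out each library in turn gave 7 to 12 higher and 6 to 8 lower guidance genes and 2556 to 4541 called genes. The scalings moved the median of all genes by -0.018 (median centring), 0.014 (sum made equal) and -0.010 (sum without mitochondrial genes).

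Over 48 of the genes named, 8 single values changed direction, all of genes not called. Epha4 was 0.00526 with the summed level made equal, 0.0301 with both libraries out and -0.0346 to 0.0383 without each library in turn. Slit1 was 0.0309 with both out and -0.0364 to 0.0136 without each library in turn, and Sema4d was 0.0111 with both out. Some genes named by their range only are not among the 48. Without each library in turn, Epha5 was -0.0170 to 0.0179, Sema7a -0.0563 to 0.0035 and Sema3e -0.0020 to 0.0231. Unc5d was -0.0081 to 0.0405 and Efnb2 -0.0128 to 0.0024. The cause was not tested.

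With a replicate block, 9 guidance genes were higher and 7 lower, and 3388 genes in all were called, and Sema5b was the 1 guidance gene that lost its call (adjusted p = 0.061). The samples were treated as unpaired because the labels do not say what a number marks. Same-numbered libraries did not deviate together (correlation of deviations -0.19 to 0.039), and 1 of 6 libraries correlated best with its own number. Depth is unknown and the values of weak genes may be shrunk, so a missed call of such a gene does not show that it was unchanged.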
